A study of Dicentrarchus labrax with 23 samples.

Results

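Claudin-2, claudin-14 and the gap junction protein Cx32.2 are junction proteins of the European sea bass (Dicentrarchus labrax) intestine, measured here with the probes CUST_L12_86083, CUST_L2_76063 and CUST_L12_76804. They are 3 of the 14147 probes on a custom Agilent array. They were chosen by the gene names that the study gave them, with earlier results of these data known. RNA of single intestinal segments was labelled with Cy3 and hybridised to 23 arrays, of which 8 were anterior intestine (AI), 7 middle intestine (MI) and 8 posterior intestine (PI). AI was cut just behind the pyloric caeca, and all fish were farmed, untreated and fasted overnight, so the groups compared differed by segment. The age of the fish is unknown here. The study named probes only where they differed between pooled AI and MI (AI-MI) and PI. Differences from PI are therefore given below as a description of probes with a known difference, and only AI vs. MI was not used in naming them.

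Claudins are membrane proteins of the tight junction, the seal between neighbouring epithelial cells, and the set of claudins in an epithelium helps to set which ions and how much water pass between its cells. In mammals, claudin-2 forms pores for cations and water and is a claudin of leaky epithelia, whereas claudin-14 acts as a barrier to cations and is best known from the inner ear and the kidney. Connexins form gap junctions, channels that join the cytoplasm of neighbouring cells and let ions and small molecules pass from cell to cell. Cx32.2 is a connexin name used in fish.

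Claudin-2 and Cx32.2 were high in AI and MI and low in PI, and claudin-14 had the opposite order. Claudin-2 was 51.6-fold higher in AI-MI than in PI, Cx32.2 was 11.4-fold higher in AI-MI, and claudin-14 was 15.4-fold higher in PI. For each of the 3 probes, no AI or MI array overlapped with any PI array, and AI and MI overlapped with each other. The share of all probes tested without such overlap was not counted, and the 3 probes carry names because they differed from PI. The lack of overlap is thus a description only. In AI-MI vs. PI, 2 of the 3 probes were called higher in AI-MI, as were 21.5% of the 12894 probes tested, and 1 was called higher in PI, as were 22.6%. In AI vs. PI, the shares of all probes called were 20.7% higher in AI and 21.3% higher in PI. In MI vs. PI, they were 16.3% higher in MI and 18.8% higher in PI. The same 2 probes were higher and the same 1 lower in both of these comparisons. In AI vs. MI none of the 3 was called, and neither was any probe of the array (0%). By an unadjusted p under 0.05, 1638 probes passed in AI vs. MI, none of these 3 among them, and the methods' t-test called 0 after adjustment. All calls are from limma, without pairing of arrays by replicate number, with Benjamini-Hochberg adjustment over the probes tested, at an adjusted p under 0.05.

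Levels are given as the log2 signal of a probe relative to the 75th percentile of its array, so that 0 is a bright probe and 1 unit is a 2-fold difference. They compare segments for 1 probe and not 1 probe with another. In RNA of whole segments, fewer cells of a type and less RNA per cell cannot be told apart.

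**Figure D1:**
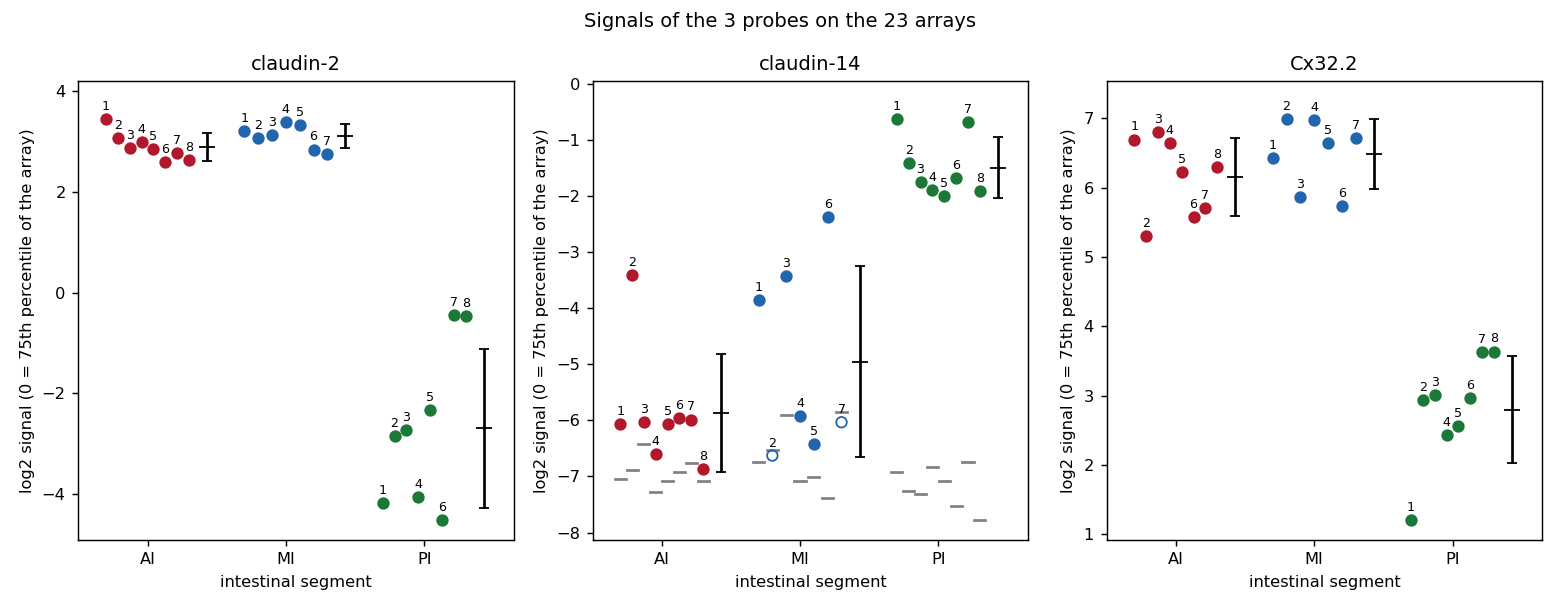
Log2 signal relative to the 75th percentile of the array (y axis) for claudin-2, claudin-14 and Cx32.2 in AI (8 arrays), MI (7) and PI (8). Each point is 1 array with its replicate number, bars are the mean and SD, and open points were not well above background. Grey ticks in the claudin-14 panel are the lowest signal well above background on that array. No PI point lies within the range of the AI and MI points, and the share of all probes of which this holds was not counted.

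In AI, the signal of claudin-2 was 2.58 on the lowest array, 2.86 at the median and 3.45 on the highest. In MI, the corresponding values were 2.75, 3.13 and 3.39. In PI, they were -4.51, -2.80 and -0.44. AI and MI thus lay in 1 narrow band, and the PI arrays lay below it and far apart from each other. The PI signals of replicates 1 to 8 were -4.18, -2.86, -2.74, -4.05, -2.32, -4.51, -0.44 and -0.47, so that replicates 7 and 8 stood above the other 6. All 23 signals were well above background.

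Claudin-2 was 5.59 log2 units higher in AI than in PI (SE 0.52, 48.3-fold, limma adjusted p = 2.56e-07). It was 5.80 units higher in MI than in PI (SE 0.56, 55.7-fold, adjusted p = 7.78e-07). For AI-MI vs. PI the difference was 5.69 units (SE 0.39, 95% confidence interval 4.88 to 6.50, adjusted p = 2.34e-11), the 100th largest in size of the 12894 probes. Without PI replicates 7 and 8, a choice made after seeing the data, the fold became 86.7 for AI-MI, 81.1 for AI and 93.5 for MI. Within slide 3, which holds 2 AI, 2 MI and 3 PI arrays, the differences were 4.50 and 4.60 units for AI and MI, with PI replicates 6, 7 and 8 as the PI arrays and with adjusted p of 0.0806 and 0.142. AI minus MI was -0.21 units (SE 0.14, interval -0.51 to 0.10, limma adjusted p = 0.58), a difference that was not called.

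The spread of claudin-2 was itself unlike between the segments. Its SD was 0.28 in AI and 0.24 in MI, where 73.8% and 74.5% of all probes tested varied more. In PI its SD was 1.58, and 1.4% of probes varied more. The median SD of all probes was 0.38 in AI, 0.34 in MI and 0.32 in PI.

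Claudin-14, the probe with the opposite order, was dim in most of AI and MI. In AI, its signal was -6.87 on the lowest array, -6.05 at the median and -3.40 on the highest. In MI, it was -6.63, -5.93 and -2.37. In PI, it was -1.996, -1.72 and -0.63. The PI arrays formed 1 group, while AI and MI were each split into a low and a higher set.

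The low set held 11 of the 15 AI-MI arrays, between -6.87 and -5.93. The 4 arrays above it were AI replicate 2 at -3.40 and MI replicates 1, 3 and 6 at -3.86, -3.43 and -2.37. MI replicate 6 came closest to PI, whose lowest array was at -1.996. In processed signal, the low set spanned 5.80 to 10.53 intensity units and was close to the limit of the method, since the lowest signals called well above background were 4.06 to 9.59 on the 23 arrays. MI replicates 2 and 7 were not well above background for claudin-14. The other 4 arrays had 60.6 units in AI replicate 2 and 33.2, 53.2 and 188 units in MI replicates 1, 3 and 6, and PI had 144 to 586 units. AI replicate 2 and MI replicates 1 and 3 were hybridised on slide 1, together with AI replicates 1 and 3 and MI replicate 2 of the low set, and MI replicate 6 on slide 3.

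Claudin-14 was 4.38 log2 units higher in PI than in AI (SE 0.39), which is 20.8-fold (limma adjusted p = 1.4e-07). Against MI it was 3.46 units higher in PI (SE 0.58), or 10.98-fold (adjusted p = 0.000218). Against AI-MI the difference was 3.95 units (SE 0.50, 95% confidence interval 2.92 to 4.97, adjusted p = 6.02e-07), the 193rd largest in size. These folds rest in large part on AI-MI signals near background. They shrank to 4.33, 3.14 and 3.72 with the normexp background correction, which adds an offset to all signals. Without AI replicate 2, the difference from AI was 4.73 units, and without MI replicate 6 the difference from MI was 3.89 units. Within slide 1 the differences of 4.14 units from AI and 3.61 from MI had adjusted p of 0.0775 and 0.0932, and within slide 3 that of 2.78 from MI had 0.23.

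The mean of MI lay 0.92 units above that of AI, which is 21.0% of the way from AI to PI. The difference between MI and AI was not called (SE 0.66, interval -0.47 to 2.31, limma adjusted p = 0.593). It was 0.49 units without MI replicate 6 and 1.27 without AI replicate 2, with no call in either case. Within slides 1, 2 and 3 it was 0.53, 0.04 and 2.22 units. The SD of claudin-14 was 1.05 in AI and 1.70 in MI, where 4.99% and 1.49% of all probes tested varied more, and 0.55 in PI.

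Cx32.2 was bright in AI and MI. In AI, its signal was 5.31 on the lowest array, 6.26 at the median and 6.81 on the highest. In MI, it was 5.74, 6.65 and 6.99. In PI, it was 1.21, 2.95 and 3.64, still well above background on every array. The lowest AI array was replicate 2, the lowest MI arrays were replicates 6 and 3 at 5.74 and 5.87, and the highest PI arrays were replicates 7 and 8 at 3.63 and 3.64. PI replicate 1, at 1.21, stood below the rest of PI, which began at 2.43.

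Cx32.2 was 3.36 log2 units higher in AI than in PI (SE 0.32, 10.3-fold, limma adjusted p = 2.85e-07). It was 3.69 units higher in MI than in PI (SE 0.32, 12.9-fold, adjusted p = 2.59e-07). For AI-MI vs. PI the difference was 3.51 units (SE 0.26, 95% confidence interval 2.96 to 4.06, adjusted p = 1.27e-10), the 251st largest in size. It was 3.28 units without PI replicate 1 and 3.79 without PI replicates 7 and 8. AI minus MI was -0.33 units (SE 0.26, interval -0.89 to 0.23, adjusted p = 0.642). The order of the segments was thus the same as for claudin-2, with MI and AI not told apart and PI below both.

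Some of the arrays on which the 3 probes stood apart from their segment also stood apart over the rest of the array, and others did not. The position of each array between the mean AI profile (0) and the mean PI profile (1) was computed over 12772 other probes. The median position was -0.01 in AI, 0.18 in MI and 1 in PI. AI replicate 2 lay at 0.40, while the other 7 AI arrays lay between -0.12 and 0.03. MI replicates 3 and 6 lay at 0.36 and 0.27, the highest of MI, followed by replicate 4 at 0.255, whose claudin-14 was in the low set, and MI replicate 7 lay at -0.04. MI replicate 1, in the higher claudin-14 set, lay at 0.17, below the median of MI. PI replicates 7 and 8 lay at 0.83 and 0.84, and the other 6 PI arrays between 0.97 and 1.06. PI replicate 1, the lowest for Cx32.2, was at 1.06, as was PI replicate 4.

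**Figure D2:**
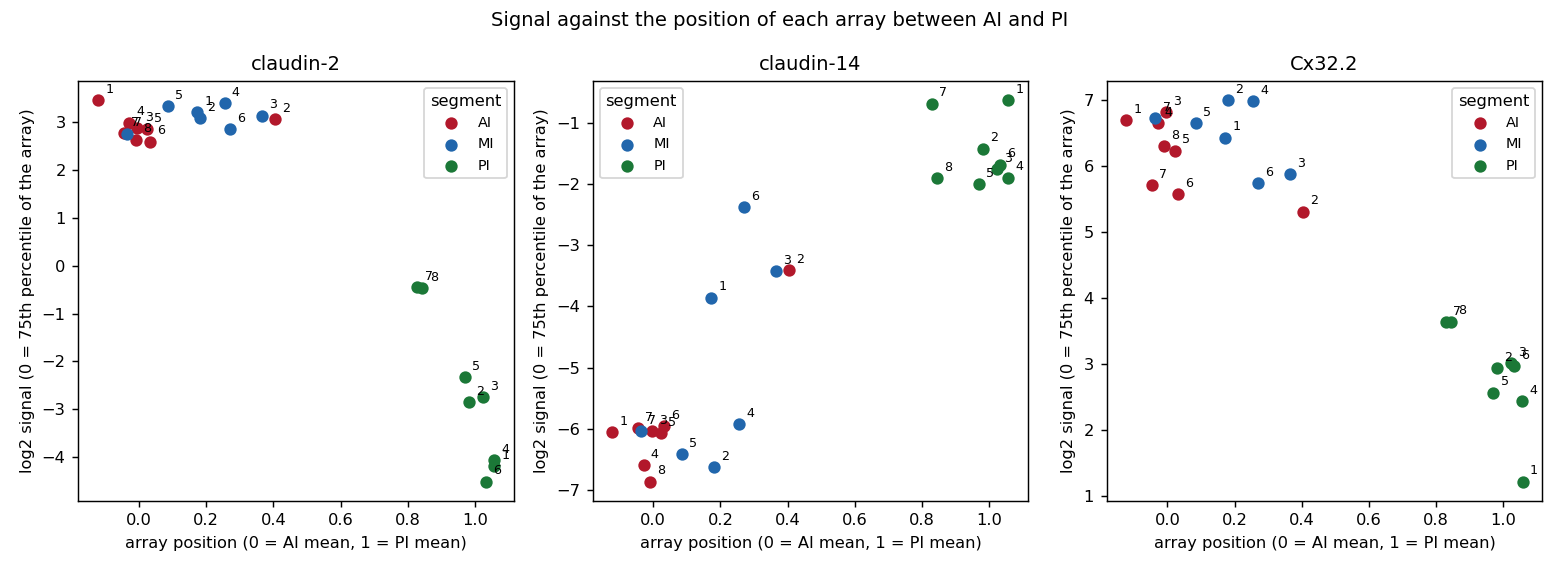
Log2 signal of claudin-2, claudin-14 and Cx32.2 (y axis, relative to the 75th percentile of the array) against the position of each array between the mean AI profile at 0 and the mean PI profile at 1 (x axis), coloured by segment and labelled with the replicate number. AI replicate 2 and MI replicates 3 and 6 lay toward PI for claudin-14 (-3.40, -3.43 and -2.37) and Cx32.2 (5.31, 5.87 and 5.74) but stayed within the AI-MI band for claudin-2, while MI replicate 1 was raised for claudin-14 (-3.86) at a position of 0.17.

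The 3 probes did not follow this position in the same way. On AI replicate 2 and MI replicates 3 and 6, claudin-14 was raised and Cx32.2 was lowest of its segment, whereas claudin-2 was 3.06, 3.13 and 2.84, inside the range of the remaining AI and MI arrays. MI replicate 1 had raised claudin-14 (-3.86) with Cx32.2 at 6.43, close to the mean of MI, and AI replicates 6 and 7 had low Cx32.2 (5.57 and 5.70) with claudin-14 in the low set. On PI replicates 7 and 8, claudin-2 and Cx32.2 were the highest of PI, whereas claudin-14 was at -0.68 and -1.91, 1 near the top and 1 near the bottom of PI. Over the 23 arrays, the correlation of deviations from the segment means was -0.57 for Cx32.2 with claudin-14, 0.56 for Cx32.2 with claudin-2 and 0.01 for claudin-14 with claudin-2. Within single segments, the correlation of Cx32.2 with claudin-14 was -0.65 in AI, -0.93 in MI (7 arrays) and -0.29 in PI. In AI and MI, most claudin-14 signals lay near background. These correlations describe arrays that share 1 scaling and 1 tissue piece per array.

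The mean log2 signal of 9 enterocyte markers, among them villin-1, sucrase-isomaltase and intestinal fatty acid-binding protein, was 3.79 to 4.86 in AI, 3.24 to 4.76 in MI and 1.30 to 2.42 in PI. Marker probes, too, carry a name only because they differed between AI-MI and PI, so that their being called was fixed beforehand and only sides and levels are described (of all probes, 21.5% were called higher in AI-MI and 22.6% in PI). All 9 were well above background on every array and higher in AI-MI, by 0.81 (villin-1) to 9.22 units (meprin A subunit beta) with a median of 1.35. Cubilin, protein amnionless and the ileal sodium/bile acid cotransporter, absorptive genes that the study found higher in PI, are not in this list. The lower mean of the list in PI is therefore no measure of enterocyte number. The summed signal of the 9 markers was 538 to 773 times the 75th percentile in AI, 526 to 776 in MI and 66.6 to 165 in PI. By this mean, the lowest AI array was replicate 2 (3.79), the lowest MI arrays were replicates 3 and 6 (3.24 and 3.66), and the highest PI arrays were replicates 7 and 8 (2.42 and 2.29). In AI and MI the mean leans on meprin A subunit beta, with SDs of 2.61 and 3.54 against 0.22 to 0.59 for the other markers. Its signal ran from -0.73 to 6.81 in AI and from -3.72 to 6.59 in MI. By summed signal, AI replicate 2 (538) and MI replicate 3 (526) were also lowest, but MI replicate 4 (544) lay below replicate 6 (550). The mean over 8 T and B cell markers was -3.81 to -2.88 in AI, -3.30 to -2.03 in MI and -2.87 to -1.21 in PI. In AI it was highest on replicate 2 (-2.88), closely followed by replicate 5 (-2.91). It was highest on MI replicate 3 in MI, and lowest on PI replicates 7 (-2.87) and 8 (-2.28) in PI. By summed signal, AI replicates 4 (4.7) and 7 (4.2) lay above AI replicate 2 (3.8). The arrays named for MI and PI were the same by that measure. Of these 8 markers, 7 were higher in PI, as were 5 of 6 smooth muscle markers, whose mean was -0.99 to 0.13 in AI, -0.82 to 0.40 in MI and 0.06 to 0.96 in PI. The 11 exocrine pancreas markers were all higher in AI-MI, with means of -1.98 to 6.24 in AI, -1.70 to 7.56 in MI and -5.08 to 1.27 in PI. All 3 hemoglobin probes were higher in AI-MI, and of the 2 mucins 1 was higher on each side. Mucin-5B, higher in PI, was well above background on 0 of 15 AI-MI arrays and 7 of 8 PI arrays. The part of cell composition in the values of the 3 probes was not tested.

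The named probes whose deviations from the segment means were most like those of each of the 3 were taken from 3489 probes with a name, with Pearson's r over 23 arrays as the measure of likeness. For claudin-2 they were uromodulin, a glycoprotein of mammalian urine (r = 0.94), transmembrane protein 254 (0.94), enteropeptidase, the brush border protease that activates trypsinogen (0.93), the actin-severing protein gelsolin (0.93) and the membrane-binding protein annexin A2 (0.91). All 5 were highest on replicates 7 and 8 among the PI arrays, which their choice by likeness to claudin-2 largely fixed beforehand. Uromodulin was at 1.31 and 1.26 on these 2 arrays and between -5.13 and -1.22 on the other 6 PI arrays. Gelsolin was at 0.96 and 0.21 there and between -5.18 and -2.16 on the others. Enteropeptidase was at 1.12 and 1.01 and between -2.86 and 0.78 on the others. Within PI alone, r with claudin-2 was 0.93 to 0.98 for the 5 probes, within MI 0.62 to 0.85 and within AI 0.25 to 0.88.

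For claudin-14, the most alike were B(0,+)-type amino acid transporter 1, which carries cystine and basic amino acids (r = 0.85), gamma-glutamyltransferase 5-like (0.82), the purine salvage enzyme purine nucleoside phosphorylase (0.81), heat shock 70 kDa protein 12A (0.80) and the transcription factor forkhead box protein D2 (0.80). B(0,+)-type amino acid transporter 1 was at 3.06 on AI replicate 2 and between -9.06 and -5.15 on the other 7 AI arrays. The lowest signals called well above background lay at -7.28 to -6.42 on the AI arrays, so the lowest of these values are under that limit. In MI it was at -0.46, 2.81 and 0.65 on replicates 1, 3 and 6 and between -7.58 and -4.98 on the other 4. In PI it was between 2.23 and 3.92. It separated the same 4 AI-MI arrays from the same 11 as claudin-14 did, which its choice by likeness to claudin-14 largely fixed beforehand. Forkhead box protein D2 was at -0.10 on AI replicate 2 and at -6.93 to -5.60 on the other AI arrays, and in MI its 3 highest arrays were replicates 3 (-1.18), 6 (-1.84) and 1 (-2.77). Gamma-glutamyltransferase 5-like was at -9.44 to -8.65 on the AI arrays other than replicate 2, under the limit given above. It was at -9.15 to -7.94 on the MI arrays other than replicates 3 and 6, where the corresponding limits were -7.39 to -5.85. In AI-MI its likeness thus rests on few arrays above background. Within PI, the 5 probes were less alike to claudin-14, with r of 0.10 to 0.33.

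**Figure D3:**
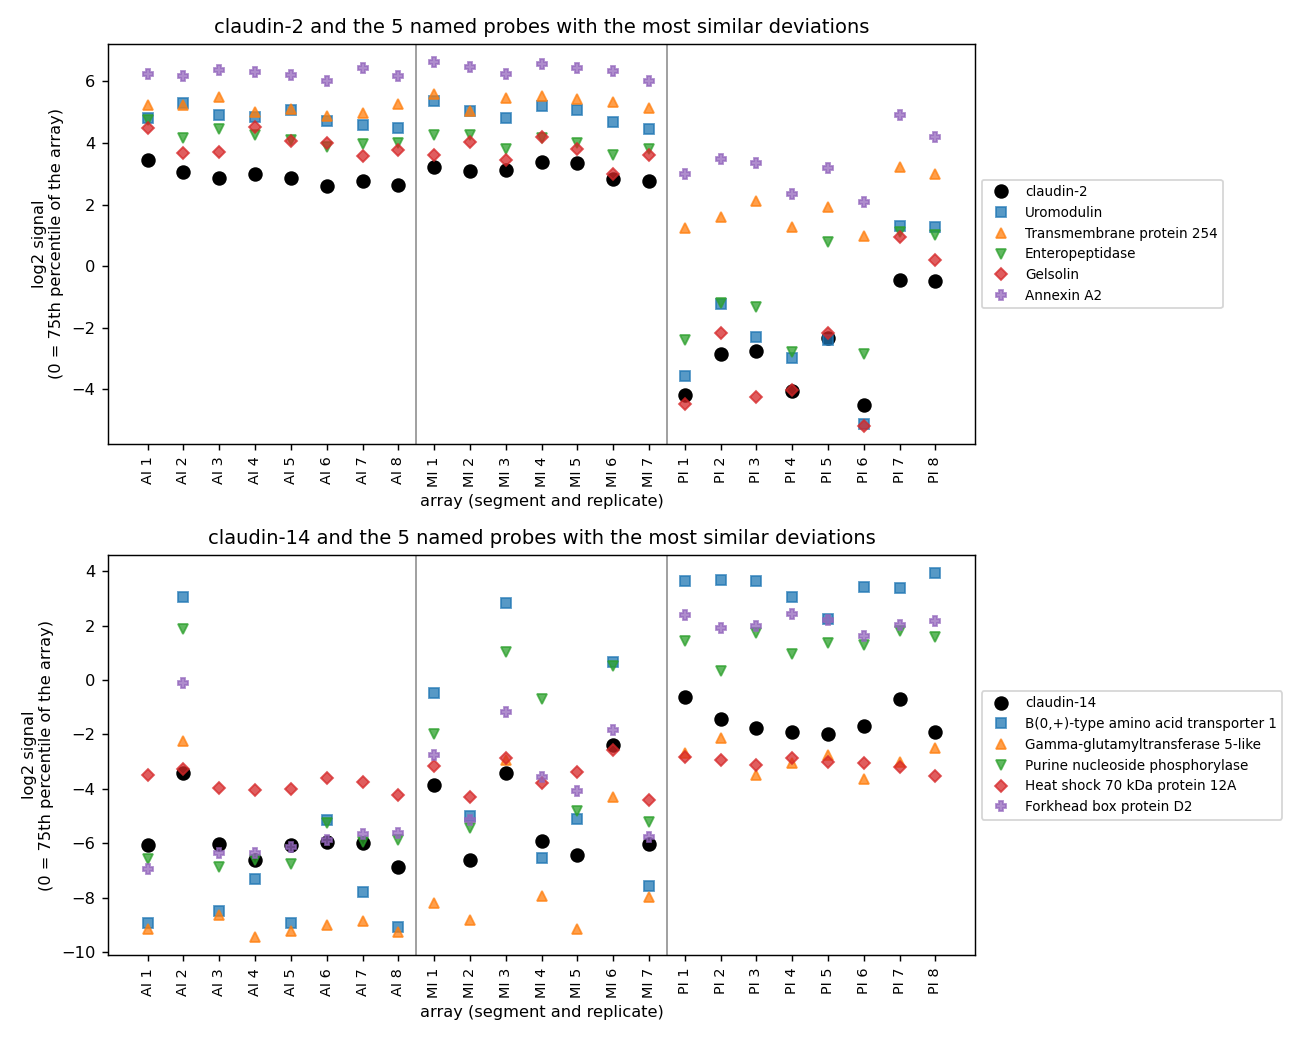
Log2 signal relative to the 75th percentile of the array (y axis) of claudin-2 (top) and claudin-14 (bottom), in black, and of the 5 named probes with the most similar deviations from the segment means, on each of the 23 arrays (x axis; vertical lines part AI, MI and PI). The claudin-2 set is highest in PI on replicates 7 and 8, and B(0,+)-type amino acid transporter 1 is higher on AI replicate 2 (3.06) and MI replicates 1, 3 and 6 (-0.46, 2.81 and 0.65) than on the other AI and MI arrays.

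For Cx32.2, likeness was lower and was spread over the segments. The most alike were UDP-glucuronosyltransferase, an enzyme that conjugates small molecules for excretion (r = 0.76), endonuclease/exonuclease/phosphatase family domain-containing protein 1 (0.73), PDEase I (0.73), monocyte to macrophage differentiation factor (0.73) and non-specific lipid-transfer protein (0.73). UDP-glucuronosyltransferase was lowest on replicate 2 in AI (1.69, the others 2.29 to 3.36) and on replicate 3 in MI (1.79, the others 2.20 to 2.81), and highest on replicates 7 and 8 in PI (1.19 and 1.91, the others -0.42 to 0.32). Mean levels of all 5 were lower in PI than in AI and MI.

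The remaining junction probes with a name were described from 3 lists, of which 27 of 29 probes were bright enough to be tested. Cadherin-7 and cadherin-15-like were not. Since names exist only for probes that the study found to differ between AI-MI and PI, their being called was fixed by the naming. Their adjusted p are those of the fit over all probes and are given as a description. AI-MI was the higher side for 14 of the 27 and PI for 13, and of all probes tested, 21.5% and 22.6% were called on these sides. The largest difference of the 27 was 3.20 units for periplakin, beside 5.69 for claudin-2, 3.51 for Cx32.2 and 3.95 for claudin-14, which was 1.90 with normexp. The 3 probes were chosen with earlier results of these data known, so their larger differences are a description only. Within slide 3, Cx32.2 differed by 2.70 units.

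**Figure D4:**
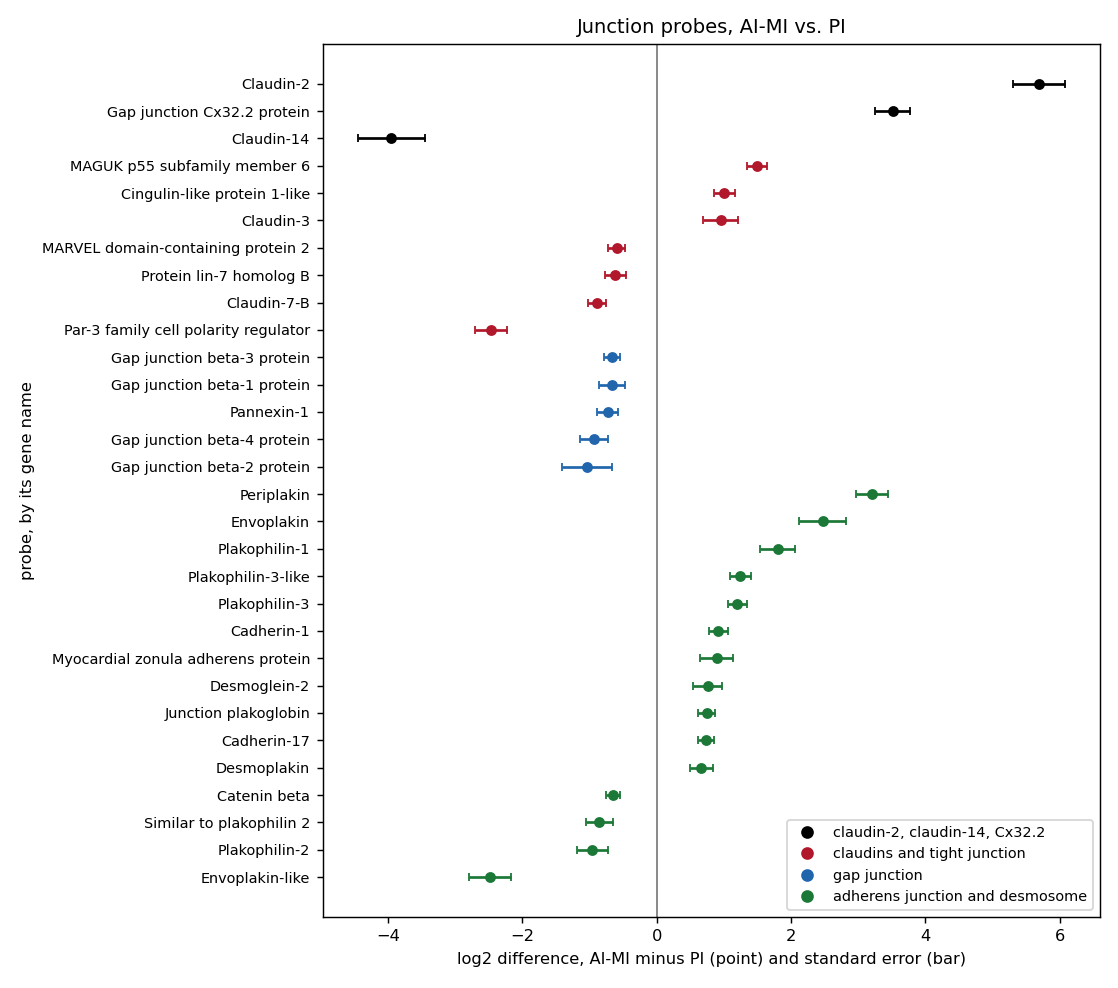
Log2 difference between AI-MI and PI (x axis, positive where AI-MI is higher) for claudin-2, claudin-14, Cx32.2 and 27 other junction probes named by the study (y axis). Points have bars for the standard error and are coloured by list. Values are from 15 AI-MI and 8 PI arrays, or 13 and 6 for cadherin-17, where outlier spots were left out. Claudin-2 (5.69), Cx32.2 (3.51) and claudin-14 (-3.95), chosen with earlier results of these data known, lie outside the range of the other probes plotted, claudin-14 falling to -1.90 with the normexp background correction. The 5 probes of the gap junction list, pannexin-1 among them, lie on the PI side, gap junction beta-2 protein turning to the other side with that correction.

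Among 7 other probes of tight junctions and their scaffolds, AI-MI was the higher side for 3 and PI for 4. The other claudins with a name moved in different directions and less than claudin-2. Claudin-3, a sealing claudin of mammals, was 0.95 units higher in AI-MI (SE 0.26, limma adjusted p = 0.00485), with levels of -4.99 to -2.50 in AI-MI and -5.86 to -4.34 in PI, which overlapped. Claudin-7-B was 0.89 units higher in PI (SE 0.14, adjusted p = 1.18e-05), also with overlap (1.72 to 2.63 in AI-MI and 2.47 to 3.63 in PI). MARVEL domain-containing protein 2, also known as tricellulin, which seals the corners where 3 cells meet, was 0.60 units higher in PI (adjusted p = 0.000352) without overlap, by a narrow gap from 1.7976 in AI-MI to 1.8029 in PI.

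Par-3, a scaffold that sets the polarity of epithelial cells, was 2.47 units higher in PI (SE 0.24, adjusted p = 1.11e-08). It was well above background on 10 of 15 AI-MI arrays and on all 8 PI arrays, at -7.29 to -5.59 and -5.27 to -2.90. MAGUK p55 subfamily member 6 was 1.49 units higher in AI-MI (SE 0.15) and cingulin-like protein 1-like 1.01 units (SE 0.16), while protein lin-7 homolog B, a partner of MAGUK scaffolds, was 0.61 units higher in PI (SE 0.16).

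The 5 other probes of the gap junction list were gap junction beta-1 to beta-4 proteins and pannexin-1. All 5 were higher in PI in the main fit, the side opposite to Cx32.2. Of all probes tested, 22.6% were called higher in PI. Gap junction probes without a name could not be looked at. The paper states that genes for gap junction proteins, claudins and cadherins were well represented on its array, without a clear pattern at its cutoff. Its cutoff was a fold change of 2, and claudin-2 and claudin-14 lie beyond it in the paper's own list. Gap junction beta-1 and beta-3 proteins were each 0.66 units higher in PI, pannexin-1, which forms channels of related structure, 0.73 units, gap junction beta-4 protein 0.93 units and gap junction beta-2 protein 1.04 units, with adjusted p of 9.07e-05 to 0.0251. Gap junction beta-2 protein was well above background on 5 of 15 AI-MI arrays and turned direction with normexp. In MI vs. PI, 3 of these 5 probes, named for differing from PI, were called higher in PI, as were 18.8% of all probes, and gap junction beta-1 (0.40 units higher in PI, adjusted p = 0.174) and beta-2 (1.08 units, 0.11) were not. Levels of gap junction beta-3 protein were -4.53 to -3.38 in AI-MI and -3.60 to -2.86 in PI, a small shift beside that of Cx32.2.

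Of 15 probes of adherens junctions and desmosomes, the anchoring junctions that tie cells together, AI-MI was the higher side for 11 and PI for 4. Cadherin-1, the adhesion protein of epithelia, was 0.92 units higher in AI-MI. Cadherin-17, an intestinal cadherin, was 0.73 units higher there, on 13 AI-MI and 6 PI arrays, since outlier spots were left out. Desmoplakin, desmoglein-2 and junction plakoglobin were 0.67 to 0.76 units higher in AI-MI. Periplakin (3.20 units, 9.21-fold), envoplakin (2.47 units) and plakophilin-1 (1.80 units), which link desmosomes or the cell cortex to keratin filaments, were the largest differences toward AI-MI. A second probe, envoplakin-like, was 2.48 units higher in PI, and plakophilin-2 was 0.96 units and catenin beta 0.65 units higher in PI. In AI vs. MI, none of the 27 junction probes was called, and 7 of them passed an unadjusted p under 0.05, as did 1638 of all 12894 probes.

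Across the arrays, 82.7% to 93.0% of probes were well above background, the 75th percentile of the processed signal was 388 to 1183 units, and no spot was saturated. Each of the 3 slides held all 3 segments. The number of arrays limits the precision of each mean, and the sources used here do not say whether arrays with equal replicate numbers are of the same fish.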

How the data were processed

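Total RNA of single segments was labelled with Cy3 and hybridised to Agilent custom arrays (8 AI, 7 MI and 8 PI). The paper gives 8 individuals for each segment, whereas the data used here hold 7 MI arrays. Per the file headers and labels, the authors scanned the arrays with Agilent Feature Extraction 11.5.1.1, whose deposited processed signal is an intensity after background subtraction and detrending, not scaled between arrays. The deposited median spot and background signals are raw intensity values. The deposited table of log2 values was made by the authors from the same signals: checked on the values, it is the same scaled log2 signal, centred so that the median of each of the 14147 probes is 0 (r = 0.999 or more on each array).

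Here, the processed signal was taken to log2, and the 75th percentile of its array was subtracted. Outlier spots (1 to 47 per array) were left out and spots of 1 probe averaged. The 12894 probes that were well above background on 7 or more of the 23 arrays were tested two-sided with lmFit and eBayes of limma 3.58.1 (R 4.3.3), using only arrays of the segments compared. The Benjamini-Hochberg adjusted p had to be under 0.05. Scripts used Python 3.11.15, numpy 2.4.6, pandas 2.3.3 and matplotlib 3.10.9, and the fit was tested on simulated data. Precision is that of 7 or 8 arrays per segment. Gene names are those of the study's supplementary list, which names 3652 of the probes; probe sequences and positions were not used here. The 3 probes, the junction and marker lists and the rule for the most alike genes (the 5 named probes with the highest r) were chosen with earlier results of these data known. The marker lists do not hold every named gene of a cell type: CD22 of B cells and chymotrypsin-like protease CTRL-1, for example, are named by the study but not in them. The enterocyte list also lacks absorptive genes that the study found higher in PI, such as cubilin and protein amnionless.

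Alternatives were quantile normalization, normexp (offset 50, on median signals, since the files used hold no mean signals), dropping the filter on dim probes, a floor on dim signals, the authors' table, the methods' t-test, a trended prior, the replicate number or the slide as a block, each slide alone, a joint fit, each array left out, and, chosen after seeing the data, PI replicates 7 and 8 left out. Deviations of AI and PI arrays with equal replicate numbers correlated in 8 of 8 pairs (0.19 to 0.59, median 0.35, against -0.05 for unequal numbers). Each of the 8 AI arrays correlated most with the PI array of its own number, also replicates 3 and 6, which did not share a slide with it. The other AI and PI pairs shared a slide, and the part of the slide in the correlation was not tested. Because of the correlation, the replicate numbers were used as pairs, but only in the setting with the replicate block. The main fit took all arrays as independent, also the AI and MI arrays pooled in AI-MI. Its SE, intervals and adjusted p thus make no allowance for a pairing. For claudin-2 in AI-MI vs. PI, the limma adjusted p was 3.82e-09 with the replicate block, against 2.34e-11 in the main fit. The sources used here do not state a pairing. For MI, 6 of 7 pairs with AI and 6 of 7 with PI were over 0.1.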

Additional observations from a re-analysis of the deposited data

Results flagged for a closer look

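Claudin-14 on AI replicate 2 was at -3.40 on the log2 scale, far from the next AI array. The gap was 0.737 of the whole range of the 8 AI arrays, beyond Dixon's critical value for 8 samples. The 3 probes gave 9 groups to test, and chance flags about 1 in 20 groups. On the same array, Cx32.2 was the lowest of AI (5.31), claudin-2 was at 3.06 within the AI range, and the array lay at 0.40 between the mean AI and PI profiles. Without it, claudin-14 was 4.73 units higher in PI than in AI, against 4.38 with it.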

How the results depend on the processing

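For the 3 probes, all 12 differences kept their direction under all settings run. Calls against PI were lost only within single slides of 2 or 3 arrays a segment: claudin-2 within slide 3 (AI vs. PI 4.50, MI vs. PI 4.60), claudin-14 within slide 1 (AI vs. PI -4.14, MI vs. PI -3.61) and within slide 3 (MI vs. PI -2.78). These slides have fewer arrays than the whole set, and the cause of the lost calls was not tested. No call was lost on leaving out any 1 array. AI-MI minus PI then ranged from 5.43 to 6.01 for claudin-2, from -4.17 to -3.82 for claudin-14 and from 3.28 to 3.63 for Cx32.2. No AI vs. MI difference of the 3 was called under any setting. With the replicate block, AI minus PI was 5.59 for claudin-2, -4.38 for claudin-14 and 3.36 for Cx32.2, and the block changed no call. With normexp, AI-MI vs. PI became 28.7-fold for claudin-2 and 3.72-fold for claudin-14. Within slides 1 and 3, it was 100-fold and 23.5-fold for claudin-2 and 19.4-fold and 6.51-fold for Cx32.2. Of the other junction probes, the 14 called higher in AI-MI became 9 and 4 within slides 1 and 3, and the 13 called higher in PI became 8 with normexp and 3 and 5 within slides 1 and 3. Over all probes, the 0 calls in AI vs. MI became 49 in the joint fit, 588 without AI replicate 2 and 40 without MI replicate 7; the cause was not tested. Claudin-14 lay near background on most AI-MI arrays, though not on all, which limits its folds.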
